A study of Mus musculus with 21 samples.

Results

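Trained quadriceps muscle was compared at 2 points of recovery, 6 h and 72 h after an exhaustive treadmill run, in 6 of the 21 bulk RNA-seq libraries of a mouse series, 3 libraries at each time. All mice were adult male C57/Bl6 mice of wildtype genotype. The trained mice had run voluntarily in wheels for 12 weeks, the treadmill test at the end of that period was the acute bout, and they were sacrificed 6 h or 72 h after it. Beside them stood 3 groups of 3 libraries each, namely untrained mice 6 h and 72 h after the same kind of bout and sedentary mice that did no exercise. The series also holds trained and untrained muscle at 0 h, which stayed out of the fit because replicate 1 of the trained and replicate 1 of the untrained 0 h group held identical values (0 differing values). Muscle was taken at sacrifice, so every comparison in time is between different mice. The p-values of single genes rest on the spread between samples within groups, estimated jointly over the 15 libraries of the 5 groups in the fit. Whether wheels were available during recovery, and whether the 6 h and 72 h samples were taken at the same time of day, are not given in the sources used here.

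An exhaustive run starts a transcriptional programme in skeletal muscle that unfolds over hours. Contraction raises calcium, heat and metabolic stress, which act through calcineurin, heat shock factor, AMP-activated kinase and hormone receptors on genes for chaperones, metal-binding proteins, fuel enzymes and the coactivator PGC-1α. PGC-1α, encoded by Ppargc1a, works with the estrogen-related receptors (ERR) and PPARα on genes of mitochondria and fat oxidation, and its own mRNA is induced by exercise and declines in the hours that follow. Muscle also holds a circadian clock, in which BMAL1 (Arntl) and CLOCK drive E-box genes such as the Per and Nr1d1 repressors, and these feed back on their activators.

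The values are TPM, a unit of transcript abundance that corrects for length and sums to nearly the same total in each library, 997647 to 997921 in the 6 trained libraries. The sequencing depth behind them is unknown, so only the 3 libraries of a group show how precise a value is. Within groups, the median SD of log2(TPM + 0.5) was 0.119 at 6 h and 0.102 at 72 h. Markers of muscle fibres made up 52047 to 59569 TPM at 6 h and 53501 to 58413 TPM at 72 h, with none of the 10 called. These high levels go with muscle tissue, but which muscle was taken cannot be read from them. Trained 6 h replicate 1 was the highest of its group for many stress and slow fibre genes, and each call of a named gene that was lost without it or without another library is given beside that gene. Genes of the mitochondrial genome held 46.4% ± 0.659 of TPM at 6 h and 47.4% ± 0.689 at 72 h (SD, n = 3, exact permutation test, two-sided, p = 0.2, smallest possible 0.1).

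Far more genes were lower than higher at 72 h. Of 53738 gene symbols, 11653 reached 1 TPM on average in the 6 trained libraries. Of these 394 (3.38%) were called, with 103 (0.884%) higher and 291 (2.50%) lower at 72 h than at 6 h. Calls required an adjusted p below 0.05 together with a change of 1.5-fold or more. All adjusted p values and standard errors (SE) come from limma with Benjamini-Hochberg adjustment over all 11653 genes. The 3 libraries of each time did not overlap for 101 of the higher and all 291 of the lower genes, where non-overlap in the respective direction was found for 1311 and 2332 of all genes tested. The 103 higher genes became 64 without 6 h replicate 1 and 61 without 72 h replicate 2, and the 291 lower genes remained between 240 and 318 with any of the 6 libraries left out. Protein-coding genes made up 78 of the higher and 238 of the lower genes. The median log2 fold change was 0.74 among the higher, -0.84 among the lower and -0.03 among all genes tested. Higher genes were 26.1% of the calls, a share that rose to 37.4% after quantile normalization (163 higher, 273 lower) and to 40% when TPM was rescaled without the mitochondrial genome and the 10 highest genes (179 higher, 268 lower). All fold changes are on the log2(TPM + 0.5) scale, which understates those of genes with low TPM.

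**Figure D1:**
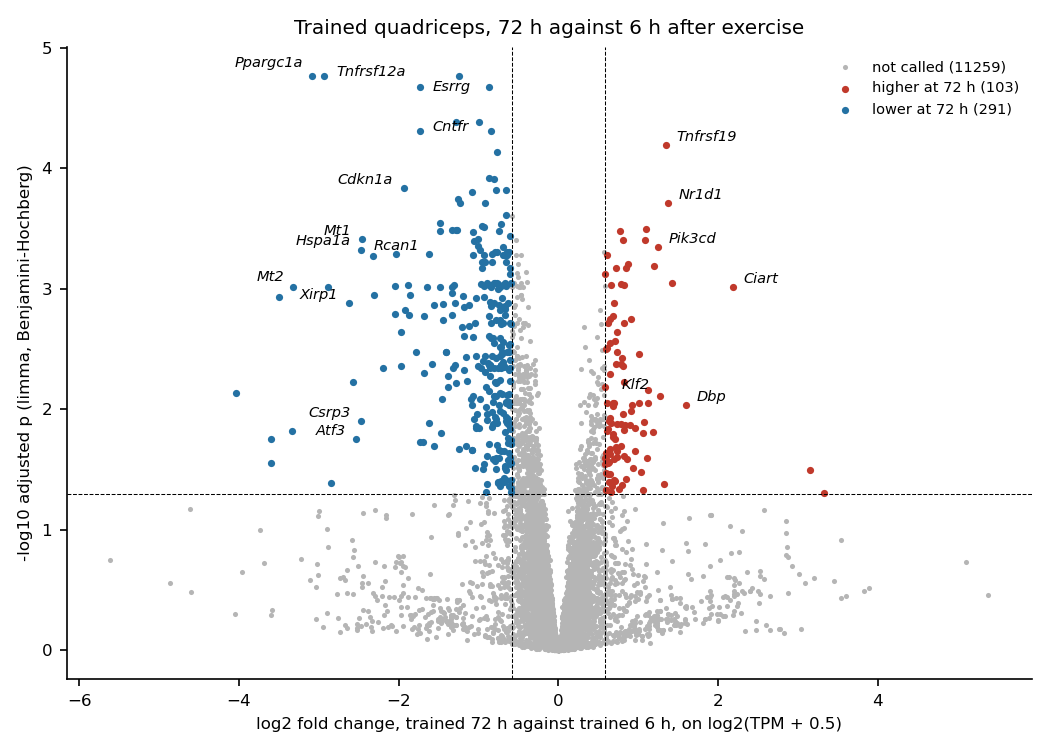
Each point is 1 of the 11653 genes tested, placed by its log2 fold change between trained muscle at 72 h and at 6 h on log2(TPM + 0.5) and by -log10 of its adjusted p from limma. The 291 genes called lower (blue) outnumber the 103 called higher (red), with Ppargc1a, Tnfrsf12a and Mt2 far left and Ciart and Dbp on the right, and the dashed lines mark the 1.5-fold and 0.05 thresholds.

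The PGC-1α and ERR axis was among the groups with the most genes called lower, 5 of the 16 tested (31.2%, against 2.50% of all genes), with 0 called higher and a median log2 fold change of -0.25. Ppargc1a (chromosome 5, 51611592 to 51725068, minus strand, GRCm39) had 48.6, 29.1 and 39.2 TPM at 6 h and 4.37, 4.04 and 3.72 TPM at 72 h. Each 6 h library lay several-fold above each 72 h library, an 8.52-fold difference (log2 fold change -3.09, SE 0.19, adjusted p = 1.7e-05), and the 72 h values stood beside 3.04, 4.301 and 4.34 TPM in sedentary muscle. Esrrg, the receptor ERRγ of oxidative muscle, had 11.9, 10.9 and 9.15 TPM at 6 h and 2.98, 2.84 and 2.71 TPM at 72 h and 3.18, 4.14 and 3.701 TPM in sedentary muscle. It was 3.31-fold lower at 72 h without overlap. The Esrrg log2 fold change was -1.73 (SE 0.12, adjusted p = 2.12e-05). Esrrb, encoding ERRβ, had 2.55, 2.19 and 2.57 TPM at 6 h and 1.42, 1.14 and 0.903 TPM at 72 h. Esrrb differed by -0.84 on the log2 scale (adjusted p = 0.00191). Esrra, encoding ERRα, had 46.96, 44.7 and 46.5 TPM at 6 h and 31.2, 33.002 and 32.9 TPM at 72 h, a difference that passed the adjusted p but not the fold threshold. For Esrra the log2 fold change was -0.50 (adjusted p = 0.000799). The 3 receptor genes thus lay lower at 72 h without overlap, as did 2332 of all 11653 genes tested. Their differences ran from largest to smallest in Esrrg, Esrrb and Esrra.

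Ppara, the fatty acid sensing receptor PPARα, had 5.09, 3.74 and 5.65 TPM at 6 h and 1.97, 2.25 and 1.49 TPM at 72 h against 1.45, 1.73 and 1.95 TPM in sedentary muscle. The Ppara log2 fold change was -1.15 (SE 0.21, adjusted p = 0.00582). Perm1, a muscle regulator induced by PGC-1 and ERR, had 64.7, 53.6 and 59.9 TPM at 6 h and 33.9, 31.4 and 31.5 TPM at 72 h. Its spread within groups was small, and the 72 h libraries lay below all sedentary ones at 38.1, 45.3 and 43.4 TPM. Perm1 differed by -0.87 on the log2 scale (SE 0.08, adjusted p = 0.00012). Ppargc1b, the paralog of Ppargc1a, overlapped between the times with 1.802, 1.55 and 1.56 TPM at 6 h and 1.65, 1.99 and 1.77 TPM at 72 h. For Ppargc1b the log2 fold change was 0.11 (adjusted p = 0.599). Tfam, the packaging factor of the mitochondrial genome, had 18.2, 16.8 and 18.9 TPM at 6 h and 13.8, 6.23 and 14.5 TPM at 72 h, without overlap but with 1 low library at 72 h. The Tfam log2 fold change was -0.71 (adjusted p = 0.204). Nrf1, a transcription factor for nuclear genes of mitochondria, had 3.89, 3.404 and 3.77 TPM at 6 h and 3.42, 3.17 and 3.05 TPM at 72 h and overlapped. Nrf1 differed by -0.17 on the log2 scale (adjusted p = 0.398). The calls of the 5 lower genes each remained with any of the 6 libraries left out.

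**Figure D2:**
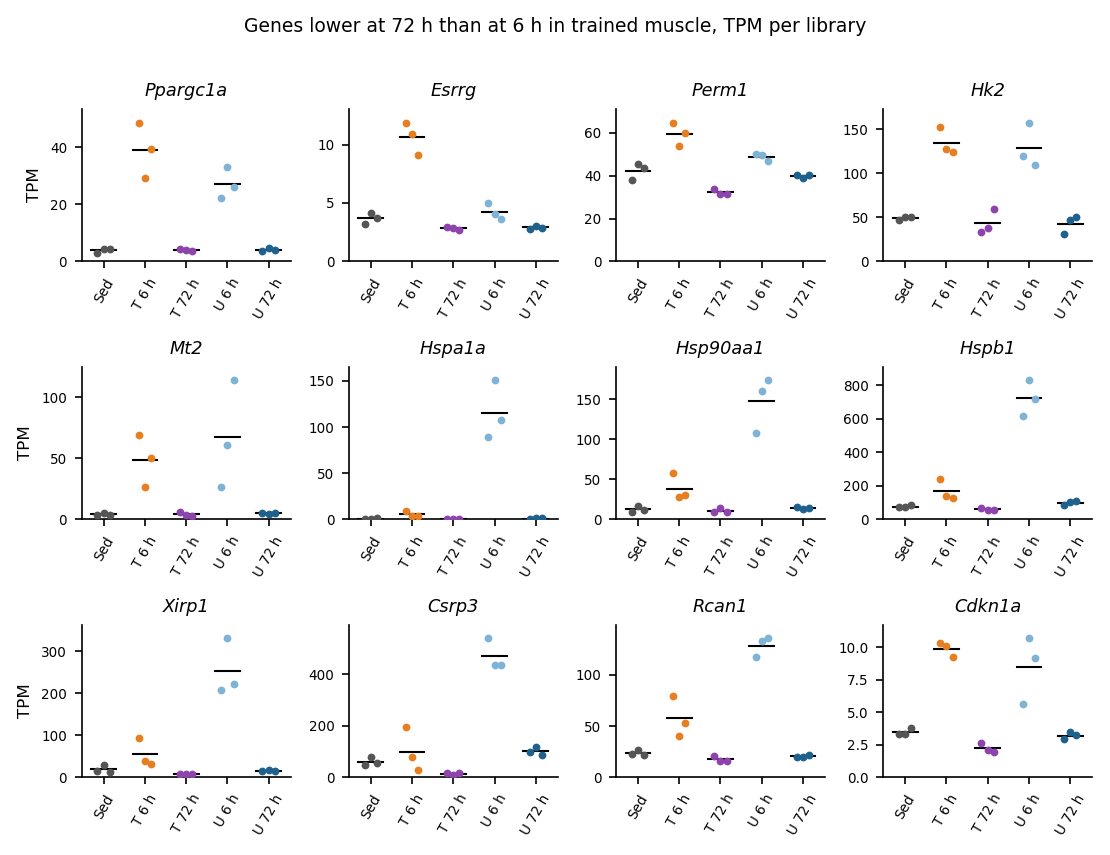
TPM of 12 genes in each library of sedentary (Sed), trained (T) and untrained (U) muscle at 6 h and 72 h, with points for libraries, bars for means of 3 and each axis starting at 0. All 12 have their trained 72 h libraries below the trained 6 h libraries, with the highest mean of Ppargc1a and Esrrg in trained 6 h muscle and of Hspa1a, Hspb1 and Xirp1 in untrained 6 h muscle.

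Among genes of fuel handling, a few enzymes and regulators of glucose and lipid use were lower at 72 h. Hk2, the hexokinase that traps glucose in muscle, had 152, 127 and 124 TPM at 6 h and 33.8, 37.7 and 59.99 TPM at 72 h against 46.7, 50.3 and 50.5 TPM in sedentary muscle. It was 3.13-fold lower at 72 h. For Hk2 the log2 fold change was -1.65 (SE 0.22, adjusted p = 0.000959). Pfkfb4, which makes the activator of phosphofructokinase, had 21.6, 23.4 and 24.4 TPM at 6 h and 11.8, 15.1 and 14.5 TPM at 72 h. The Pfkfb4 log2 fold change was -0.73 (adjusted p = 0.00254). These were the 2 called among 16 genes of glycolysis (12.5%, against 2.50% of all genes), of which 0 were higher and whose median was -0.05. Ppp1r3c, a targeting subunit that brings protein phosphatase to glycogen, had 115, 131 and 183 TPM at 6 h and 43.7, 30.5 and 28.7 TPM at 72 h and 50.98, 67.5 and 76.3 TPM in sedentary muscle, so that the 72 h libraries lay below both other groups. Ppp1r3c differed by -2.04 on the log2 scale (SE 0.30, adjusted p = 0.00163). Ugp2, which makes the glucose donor of glycogen synthesis, had 214, 214 and 239 TPM at 6 h and 141, 154 and 142 TPM at 72 h. For Ugp2 the log2 fold change was -0.61 (adjusted p = 0.000759). The glucose uptake and glycogen group held these as its 2 lower genes among 22 tested (9.09%), with 0 higher and a median of -0.14. Of all genes tested 2.50% were lower. Slc2a4, the insulin-responsive glucose transporter, overlapped with 179.97, 196 and 215 TPM at 6 h and 175, 181 and 178 TPM at 72 h.

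Among 21 PPAR targets and pyruvate dehydrogenase kinases 3 were lower (14.3%, against 2.50% of all genes) and 0 higher. Their median of -0.46 lay well below the -0.03 of all genes. Plin5, a lipid droplet protein of oxidative tissue, had 18.9, 13.9 and 9.43 TPM at 6 h and 4.26, 5.04 and 4.61 TPM at 72 h (log2 fold change -1.45, SE 0.28, adjusted p = 0.00813), and its paralog Plin4 had 55.3, 52.3 and 41.8 TPM at 6 h and 29.6, 30.1 and 30.01 TPM at 72 h. The Plin4 log2 fold change was -0.72 (adjusted p = 0.00451). Fabp3, which carries fatty acids in muscle, had 764, 562 and 437 TPM at 6 h and 295, 342 and 308 TPM at 72 h. Fabp3 differed by -0.86 on the log2 scale (adjusted p = 0.0194). The 72 h libraries of Plin5 and Fabp3 lay below all sedentary libraries, which had 5.66, 5.74 and 7.03 TPM and 446, 474 and 542 TPM. Pdk4, the kinase that closes pyruvate dehydrogenase, varied most, with 515, 167 and 86.6 TPM at 6 h and 117, 103 and 138 TPM at 72 h. Only replicate 1 at 6 h stood far above the rest, and the groups overlapped. For Pdk4 the log2 fold change was -0.72 (adjusted p = 0.568). Ucp3 had 72.7, 37.8 and 36.1 TPM at 6 h and 28.2, 32.4 and 40.7 TPM at 72 h and overlapped as well. The Ucp3 log2 fold change was -0.47 (adjusted p = 0.558). The 16 genes of fatty acid beta-oxidation had 0 calls and a median of -0.02. Fabp3 lost its call without 6 h replicate 1 or 72 h replicate 1 or 3 (adjusted p up to 0.0707). Ugp2 lost its call without 6 h replicate 3 (log2 fold change up to -0.56). Ugp2 also lost its call after quantile normalization and after the rescaling.

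By count, the HSP70 and HSP90 list held more lower genes than any other list examined. By share it came below lists such as small heat shock proteins (57.1%), glucocorticoid-responsive genes (35%) and the PGC-1 and ERR list (31.2%). Of all genes tested 2.50% were lower. Of 28 HSP70, HSP90 and partner genes 8 were lower at 72 h (28.6%) and 0 higher, with a median of -0.40, and of 7 small heat shock protein genes 4 were lower and 0 higher, with a median of -0.60. With 1 of the 6 libraries left out, 6 to 9 and 2 to 4 genes of these lists were lower. Hspa1a (chromosome 17, 35188166 to 35191132) and Hspa1b (chromosome 17, 35175412 to 35178214, both minus strand, GRCm39) encode the inducible HSP70. Hspa1a had 8.73, 4.03 and 4.14 TPM at 6 h and 0.709, 0.517 and 0.418 TPM at 72 h. Hspa1a differed by -2.47 on the log2 scale (SE 0.29, adjusted p = 0.000471). Hspa1b had 7.92, 2.51 and 2.25 TPM at 6 h and 0.604, 0.635 and 0.427 TPM at 72 h. For Hspa1b the log2 fold change was -1.97 (SE 0.34, adjusted p = 0.00433). The genes are near-identical copies, so the division of reads between them is uncertain. The 72 h libraries of Hspa1a lay just below sedentary muscle at 0.725, 0.888 and 1.15 TPM, and 6 h replicate 1 was the highest library of both genes. Hsp90aa1, the inducible HSP90, had 57.5, 28.1 and 30.04 TPM at 6 h and 8.96, 13.8 and 8.78 TPM at 72 h and 9.13, 16.2 and 11.98 TPM in sedentary muscle. The Hsp90aa1 log2 fold change was -1.78 (SE 0.29, adjusted p = 0.00333).

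Of the nucleotide exchange factors, cochaperones and chaperonin genes named here, Bag3, Hsph1, Dnaja4 and Hspe1 were called lower, by smaller steps. Bag3, which couples HSP70 to autophagy of damaged filament proteins, had 57.5, 46.8 and 45.3 TPM at 6 h and 24.2, 24.2 and 22.4 TPM at 72 h. Bag3 differed by -1.06 on the log2 scale (adjusted p = 0.000401). Hsph1, an HSP110 exchange factor, had 34.3, 30.9 and 40.6 TPM at 6 h and 18.6, 20.4 and 17.8 TPM at 72 h. For Hsph1 the log2 fold change was -0.87 (adjusted p = 0.00427). Dnaja4, an HSP40 protein, had 37.9, 23.9 and 22.03 TPM at 6 h and 15.6, 15.1 and 15.3 TPM at 72 h. The Dnaja4 log2 fold change was -0.80 (adjusted p = 0.00771). The 72 h libraries of Bag3 and Hsph1 overlapped with sedentary muscle, which had 22.2, 23.8 and 27.1 TPM of Bag3, and those of Dnaja4 lay below its 16.6, 19.96 and 19.1 TPM. Hspe1, the lid of the mitochondrial chaperonin, had 76.2, 64.9 and 58.5 TPM at 6 h and 39.3, 41.1 and 42.9 TPM at 72 h. Hspe1 differed by -0.68 on the log2 scale (adjusted p = 0.000921). Without 6 h replicate 1 (log2 fold change -0.58), and after quantile normalization, Hspe1 was not called. Its partner Hspd1 had 66.9, 57.6 and 66.9 TPM at 6 h and 49.2, 52.5 and 53.2 TPM at 72 h, with no overlap but less than 1.5-fold apart. For Hspd1 the log2 fold change was -0.30 (adjusted p = 0.0306). The constitutive HSP70 gene Hspa8 overlapped with 568, 481 and 638 TPM at 6 h and 530.3, 326 and 534 TPM at 72 h. The Hspa8 log2 fold change was -0.30 (adjusted p = 0.635). Dnajb1, the main inducible HSP40 gene, had 1.38, 1.0002 and 1.21 TPM at 6 h and 1.29, 1.46 and 1.14 TPM at 72 h, with no difference detected. Dnajb1 differed by 0.09 on the log2 scale (adjusted p = 0.81).

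Small heat shock proteins bind the sarcomere and keep its proteins soluble. Hspb7, a small heat shock protein of heart and skeletal muscle, had 284, 186 and 117 TPM at 6 h and 51.1, 49.95 and 49.3 TPM at 72 h. For Hspb7 the log2 fold change was -1.86 (SE 0.26, adjusted p = 0.00113). Hspb1 (HSP27) had 238, 139.96 and 126 TPM at 6 h and 65.98, 55.7 and 56.4 TPM at 72 h against 71.1, 73.7 and 85.01 TPM in sedentary muscle. The Hspb1 log2 fold change was -1.44 (SE 0.21, adjusted p = 0.00135). Cryab, the desmin chaperone αB-crystallin, had 922, 516 and 469 TPM at 6 h and 329, 363 and 386 TPM at 72 h. Cryab differed by -0.76 on the log2 scale (adjusted p = 0.0412). Hspb8, the partner of Bag3, had 249, 194 and 245 TPM at 6 h and 139, 149 and 165 TPM at 72 h. For Hspb8 the log2 fold change was -0.60 (adjusted p = 0.0195). For Hspb7, Hspb1 and Cryab replicate 1 was the highest of the 6 h libraries. Dnaja4 lost its call without 6 h replicate 1 (log2 fold change up to -0.57). Cryab lost its call without 6 h replicate 1 or 72 h replicate 1, 2 or 3 (adjusted p up to 0.126). Hspb8 lost its call without 6 h replicate 1 or 3 or 72 h replicate 1 or 2 (adjusted p up to 0.0787). Cryab and Hspb8 also lost their calls after the rescaling of TPM, and Hspb8 after quantile normalization.

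A heat shock element, the site bound by heat shock factor, was looked for on both strands of the promoters, 250 bases before to 50 after the start (RefSeq, GRCm38.p6), because 8 of the 28 HSP70 and HSP90 genes were lower. It lay in the promoters of 5 of the 23 HSP70 and HSP90 genes that had one in the table (21.7%), in 0.667% of the 8093 tested genes with a promoter and in 0.603% of all 32851 windows. It lay in 2 of 218 promoters of genes lower at 72 h (0.917%), in 2 of 71 of genes higher at 72 h (2.82%) and in 0 of 5 of small heat shock genes. The 5 HSP70 and HSP90 genes with a match were Chordc1, Dnajb6, Hspd1, Hspe1 and Hsph1, of which only Hspe1 and Hsph1 were called lower. Hspd1 and Hspe1 each had 2 matches, and whether both genes share the same stretch was not examined. The called genes Hspa1a, Hspa1b, Bag3 and Dnaja4 had 0 exact matches in these windows. Sites that deviate from these letters or lie elsewhere were not searched. The 250 bases before the start of Hspe1 (chr1:55087898-55088147, plus strand) held 2 overlapping matches, which begin 89 and 84 bases before the start and are in capitals, shown as the called chaperone gene with both inside 1 stretch.
Hspe1: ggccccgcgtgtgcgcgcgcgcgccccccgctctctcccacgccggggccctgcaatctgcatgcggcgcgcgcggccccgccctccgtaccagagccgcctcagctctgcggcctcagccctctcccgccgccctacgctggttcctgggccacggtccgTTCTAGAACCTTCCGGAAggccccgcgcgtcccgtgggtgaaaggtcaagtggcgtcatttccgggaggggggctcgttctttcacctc

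In the endoplasmic reticulum the unfolded protein response had 2 of 26 tested genes lower (7.69%, against 2.50% of all genes) and 0 higher. Hspa5, the chaperone BiP, had 51.6, 40.7 and 58.3 TPM at 6 h and 34.5, 28.4 and 32.9 TPM at 72 h. The Hspa5 log2 fold change was -0.63 (adjusted p = 0.0173). Ppp1r15a, which restarts translation after stress, had 10.5, 10.5 and 10.8 TPM at 6 h and 6.12, 6.64 and 6.74 TPM at 72 h. Ppp1r15a differed by -0.67 on the log2 scale (adjusted p = 0.0304). Hspa5 lost its call without 6 h replicate 1 or 3 or 72 h replicate 2 (adjusted p up to 0.0757). Ppp1r15a lost its call without 6 h replicate 1, 2 or 3 or 72 h replicate 1, 2 or 3 (adjusted p up to 0.0973). Hspa5 also lost its call after quantile normalization and the rescaling. Chac1, a glutathione-degrading target of the same response, lay the other way without overlap, with 14.6, 13.4 and 12.2 TPM at 6 h and 44.6, 36.3 and 46.9 TPM at 72 h, and was not called. For Chac1 the log2 fold change was 1.63 (adjusted p = 0.149). The fit shares 1 estimate of spread over 5 groups, and the untrained 6 h libraries of Chac1 were far apart at 31.4, 19.2 and 5.77 TPM.

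Metal-binding genes held the largest fall among the 238 protein-coding genes called lower. Mt2 (chromosome 8, 94898819 to 94900207, plus strand, GRCm39) and its neighbour Mt1 (chromosome 8, 94905710 to 94906955) encode metallothioneins, which buffer zinc and copper. Mt2 had 69.1, 26.96 and 50.1 TPM at 6 h and 6.06, 3.65 and 3.02 TPM at 72 h against 3.95, 4.88 and 3.69 TPM in sedentary muscle, 10.03-fold lower at 72 h on this scale. The Mt2 log2 fold change was -3.33 (SE 0.45, adjusted p = 0.000963). Mt1 had 69.4, 43.97 and 63.2 TPM at 6 h and 11.5, 9.67 and 9.21 TPM at 72 h against 6.51, 9.04 and 9.12 TPM (log2 fold change -2.46, SE 0.27, adjusted p = 0.000386), and since the pair is similar in sequence a part of the reads could be divided between them. Slc39a14, a zinc importer, had 5.86, 5.02 and 7.84 TPM at 6 h and 2.87, 2.19 and 2.89 TPM at 72 h (log2 fold change -1.08, adjusted p = 0.00923). That made 3 lower (33.3%, against 2.50% of all genes) and 0 higher of the 9 metallothionein and zinc transporter genes tested.

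Metallothioneins are also targets of the glucocorticoid receptor. Of 20 tested genes known to respond to glucocorticoids 7 were lower (35%, against 2.50% of all genes), with 0 higher and a median of -0.22. Fkbp5, a cochaperone of that receptor and one of its most direct targets, had 11.2, 16.8 and 20.3 TPM at 6 h and 6.78, 5.35 and 5.99 TPM at 72 h (log2 fold change -1.31, SE 0.17, adjusted p = 0.000924), and its 72 h values remained above the 4.13, 4.27 and 3.82 TPM of sedentary muscle. Nfkbia, the inhibitor of NF-κB, had 12.9, 13.4 and 16.1 TPM at 6 h and 5.95, 7.42 and 7.66 TPM at 72 h. Nfkbia differed by -0.96 on the log2 scale (adjusted p = 0.000904). Ddit4, the mTORC1 inhibitor REDD1, had 5.69, 5.21 and 5.78 TPM at 6 h and 3.55, 2.25 and 2.403 TPM at 72 h (log2 fold change -0.93, adjusted p = 0.0283), with all 72 h libraries above the 1.03, 1.33 and 1.71 TPM of sedentary muscle. Pik3r1, a regulatory subunit of PI3 kinase, had 5.22, 6.35 and 6.61 TPM at 6 h and 3.36, 3.53 and 2.99 TPM at 72 h. For Pik3r1 the log2 fold change was -0.79 (adjusted p = 0.00776). Zbtb16, encoding PLZF, had 8.83, 8.02 and 11.3 TPM at 6 h and 6.79, 4.87 and 5.51 TPM at 72 h. The Zbtb16 log2 fold change was -0.66 (adjusted p = 0.0296). Klf15, another glucocorticoid target of muscle, overlapped with 9.26, 12.2 and 8.504 TPM at 6 h and 9.65, 9.63 and 9.96 TPM at 72 h. Klf15 differed by -0.02 on the log2 scale (adjusted p = 0.965). The call of Ddit4 was lost without 6 h replicate 1, 2 or 3 or 72 h replicate 2 or 3 (adjusted p up to 0.109) and that of Zbtb16 without 6 h replicate 1 or 3 or 72 h replicate 2 or 3 (adjusted p up to 0.117), and hormone levels were not among the measurements analysed here.

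The NRF2 antioxidant group had 3 of 13 genes lower (23.1%, against 2.50% of all genes) and 0 higher. Srxn1, which repairs oxidised peroxiredoxins, had 24.8, 14.3 and 31.4 TPM at 6 h and 5.27, 5.92 and 4.86 TPM at 72 h. For Srxn1 the log2 fold change was -1.97 (SE 0.31, adjusted p = 0.00228). Hmox1, the haem-degrading enzyme, had 5.62, 4.29 and 6.18 TPM at 6 h and 2.51, 3.16 and 2.53 TPM at 72 h. The Hmox1 log2 fold change was -0.85 (adjusted p = 0.00529). Txnrd1, which reduces thioredoxin, had 26.9, 23.1 and 31.5 TPM at 6 h and 15.6, 16.1 and 15.5 TPM at 72 h. Txnrd1 differed by -0.76 on the log2 scale (adjusted p = 0.00457). The 72 h libraries of all 3 lay near sedentary muscle, for example 15.7, 15.1 and 17.1 TPM of Txnrd1. Sod2, the mitochondrial superoxide dismutase, overlapped with 113, 99.96 and 114 TPM at 6 h and 102, 122 and 115 TPM at 72 h. For Sod2 the log2 fold change was 0.05 (adjusted p = 0.883).

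Xirp1, Csrp3, Ankrd2 and Flnc, genes that respond to load on the sarcomere, were lower at 72 h, with their 72 h libraries below each sedentary library as well. Of 17 ankyrin repeat and mechanosensing genes 4 were lower (23.5%, against 2.50% of all genes) and 0 higher, with a median of -0.26. With 1 of the 6 libraries left out, 3 to 7 were lower. Xirp1, an actin-binding protein of damaged filaments, had 94.5, 37.9 and 31.4 TPM at 6 h and 8.34, 7.07 and 6.94 TPM at 72 h (log2 fold change -2.62, SE 0.37, adjusted p = 0.00131), and all 72 h libraries lay below the 14.8, 29.1 and 13.7 TPM of sedentary muscle. Csrp3, the muscle LIM protein of the Z-disc, had 196, 77.3 and 26.6 TPM at 6 h and 15.3, 9.401 and 15.1 TPM at 72 h. The Csrp3 log2 fold change was -2.47 (SE 0.52, adjusted p = 0.0125). Its 6 h libraries were far apart, and its 72 h libraries lay below the sedentary 48.3, 77.1 and 57.4 TPM. Ankrd2, a stretch-responsive ankyrin protein more abundant in slow fibres, had 105, 62.8 and 43.4 TPM at 6 h and 17.1, 16.6 and 19.5 TPM at 72 h against 50.1, 66.2 and 47.1 TPM. Ankrd2 differed by -1.86 on the log2 scale (SE 0.28, adjusted p = 0.00165). Flnc, the muscle filamin, had 122, 74.99 and 63.8 TPM at 6 h and 34.8, 33.7 and 32.9 TPM at 72 h (log2 fold change -1.29, adjusted p = 0.00131), again with 72 h libraries below the sedentary 42.7, 40.4 and 43.1 TPM. Ankrd1 had 20.5, 5.22 and 2.47 TPM at 6 h and 1.77, 2.48 and 1.43 TPM at 72 h and was not called (log2 fold change -1.59, adjusted p = 0.115), with the groups overlapping and 6 h replicate 1 far above the rest. The call of Csrp3 was lost without 72 h replicate 2 (adjusted p up to 0.0575).

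Tnfrsf12a, the receptor Fn14 for the cytokine TWEAK, had 43.9, 26.1 and 25.1 TPM at 6 h and 4.21, 3.52 and 3.09 TPM at 72 h and was 7.63-fold lower at 72 h (log2 fold change -2.93, SE 0.19, adjusted p = 1.7e-05), below the 10.8, 10.3 and 9.32 TPM of sedentary muscle. At the neuromuscular junction 2 of 11 genes were lower (18.2%, against 2.50% of all genes) and 0 higher. Musk, the receptor kinase that clusters acetylcholine receptors, had 7.77, 6.66 and 7.701 TPM at 6 h and 2.21, 2.22 and 2.56 TPM at 72 h against 1.98, 1.82 and 2.69 TPM in sedentary muscle. For Musk the log2 fold change was -1.48 (SE 0.20, adjusted p = 0.000959). Dok7, its intracellular activator, had 6.83, 6.83 and 6.62 TPM at 6 h and 3.31, 2.99 and 3.42 TPM at 72 h against 3.01, 3.04 and 3.61 TPM. The Dok7 log2 fold change was -0.96 (SE 0.10, adjusted p = 0.000303). In both genes the 6 h libraries lay close together and above each 72 h and sedentary library. Rcan1, a feedback inhibitor and classic readout of calcineurin, had 79.1, 40.2 and 53.03 TPM at 6 h and 20.6, 16.3 and 16.4 TPM at 72 h (log2 fold change -1.62, SE 0.19, adjusted p = 0.000515). It was 1 of 2 genes lower among 12 of the calcineurin and NFAT group (16.7%, against 2.50% of all genes), with 0 higher.

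A few genes of growth arrest and of the response to hypoxia were called lower at 72 h. Cdkn1a, the cell cycle inhibitor p21, had 10.3, 10.1 and 9.26 TPM at 6 h and 2.68, 2.09 and 1.92 TPM at 72 h against 3.36, 3.31 and 3.78 TPM in sedentary muscle. Cdkn1a differed by -1.94 on the log2 scale (SE 0.18, adjusted p = 0.000146). Gadd45a, a stress and denervation gene, had 14.95, 15.4 and 18.7 TPM at 6 h and 8.56, 8.298 and 9.64 TPM at 72 h (log2 fold change -0.85, adjusted p = 0.00254). Cdkn1a, Gadd45a and Ddit4 were the 3 lower (20%, against 2.50% of all genes) of 15 p53, GADD45 and BTG genes, with 0 higher. Egln3, the prolyl hydroxylase PHD3 that is itself induced by hypoxia-inducible factor, had 31.3, 31.8 and 24.5 TPM at 6 h and 8.09, 6.75 and 5.44 TPM at 72 h against 4.64, 7.19 and 7.05 TPM. For Egln3 the log2 fold change was -2.04 (SE 0.24, adjusted p = 0.000511). It was the 1 lower gene of 17 in the VEGF, angiopoietin and apelin group, in which Vegfa itself had 103, 86.98 and 105 TPM at 6 h and 72.2, 63.04 and 60.5 TPM at 72 h, without overlap but under the fold threshold. The Vegfa log2 fold change was -0.58 (adjusted p = 0.00225). Mrm1, a methyltransferase of the mitochondrial ribosomal RNA, had 6.57, 12.3 and 10.2 TPM at 6 h and 1.72, 1.44 and 1.34 TPM at 72 h. Mrm1 differed by -2.31 on the log2 scale (SE 0.32, adjusted p = 0.00113).

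Transcription factors of the immediate early class were mostly at low levels at both times. Among 8 AP-1 genes Atf3, a stress-induced repressor, was the 1 lower and 0 were higher. It had 32.5, 6.94 and 3.56 TPM at 6 h and 1.65, 0.933 and 1.18 TPM at 72 h, with 6 h replicate 1 several-fold above the other 6 h libraries. For Atf3 the log2 fold change was -2.53 (SE 0.57, adjusted p = 0.0178). Fos had 1.22, 0.938 and 0.968 TPM at 6 h and 0.708, 1.67 and 2.27 TPM at 72 h and Egr1 1.86, 0.715 and 0.699 TPM at 6 h and 0.438, 0.809 and 2.06 TPM at 72 h, each overlapping (adjusted p = 0.775 and 0.98). Among 14 EGR and SRF-driven genes Ier3 was higher, with 1.86, 2.69 and 2.03 TPM at 6 h and 3.21, 4.82 and 3.76 TPM at 72 h. The Ier3 log2 fold change was 0.71 (adjusted p = 0.0176). Vcl, the adhesion protein vinculin, was lower, with 20.6, 19.3 and 27.1 TPM at 6 h and 14.2, 13.5 and 13.8 TPM at 72 h. Vcl differed by -0.65 on the log2 scale (adjusted p = 0.0115).

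The NR4A receptors, orphan nuclear receptors induced by exercise, moved apart. Nr4a3 had 2.76, 1.34 and 1.63 TPM at 6 h and 0.171, 0.1102 and 0.0724 TPM at 72 h (log2 fold change -1.92, SE 0.28, adjusted p = 0.00148), back in the range of the 0.0705, 0.396 and 0.115 TPM of sedentary muscle. Nr4a1 was the opposite, with 10.7, 15.5 and 20.1 TPM at 6 h and 29.4, 31.4 and 35.1 TPM at 72 h (log2 fold change 1.07, SE 0.23, adjusted p = 0.0157), where the sedentary libraries at 23.1, 20.7 and 30.9 TPM lay above the 6 h and overlapped with the 72 h libraries. The Kruppel-like factors Klf2 and Klf4, shear-sensitive regulators of endothelial cells that other cells express too, were higher. They were 2 of 10 (20%, against 0.884% of all genes), with 0 lower. Klf2 had 2.19, 2.56 and 2.07 TPM at 6 h and 6.48, 6.25 and 5.88 TPM at 72 h (log2 fold change 1.28, SE 0.25, adjusted p = 0.00767) and Klf4 had 1.38, 1.57 and 1.403 TPM at 6 h and 4.18, 4.38 and 2.899 TPM at 72 h. For Klf4 the log2 fold change was 1.13 (SE 0.22, adjusted p = 0.00887). In both, the 72 h libraries lay above all sedentary ones, which had 1.97, 2.46 and 4.299 TPM and 1.58, 1.88 and 2.57 TPM. The 8 endothelial markers had 0 calls and a median of -0.08, and their part in the Klf2 and Klf4 result was not tested. Atf3 lost its call without 72 h replicate 2 or 3 (adjusted p up to 0.0684). Ier3 lost its call without 6 h replicate 1 or 3 or 72 h replicate 2 (adjusted p up to 0.0753). Vcl lost its call without 6 h replicate 3 (log2 fold change up to -0.51). Nr4a1 lost its call without 6 h replicate 1 or 72 h replicate 2 or 3 (adjusted p up to 0.0614).

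In cyclic AMP signalling 1 gene was higher (7.14%, against 0.884% of all genes) and 2 lower (14.3%, against 2.50%) of 14. Crem, whose short isoforms repress CREB targets, had 14.4, 9.58 and 11.2 TPM at 6 h and 3.99, 5.19 and 5.37 TPM at 72 h. The Crem log2 fold change was -1.18 (adjusted p = 0.00474). The phosphodiesterases were split, since Pde4d had 36.7, 33.6 and 34.3 TPM at 6 h and 19.01, 21.4 and 22.6 TPM at 72 h (log2 fold change -0.72, adjusted p = 0.00306) and Pde4b had 6.01, 8.16 and 6.94 TPM at 6 h and 15.5, 13.9 and 9.64 TPM at 72 h. Pde4b differed by 0.83 on the log2 scale (adjusted p = 0.0244). The call of Pde4b was lost without 6 h replicate 1 or 3 or 72 h replicate 1 or 2 (adjusted p up to 0.094).

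Clock genes were the 3 largest rises among the 78 protein-coding genes called higher. Of 11 genes of the negative limb, the repressors of the clock, 4 were higher (36.4%, against 0.884% of all genes) and 1 lower, with a median of 0.56, of 5 output genes 2 were higher and 0 lower, and of 4 activators 1 was lower and 0 higher. With 1 of the 6 libraries left out, 3 to 6 of the negative limb were higher. Ciart (chromosome 3, 95785815 to 95789991, minus strand, GRCm39), a repressor of the CLOCK and BMAL1 complex, had 0.999, 0.826 and 0.938 TPM at 6 h and 3.55, 6.14 and 9.45 TPM at 72 h (log2 fold change 2.18, SE 0.30, adjusted p = 0.000968), 4.54-fold higher on this scale. The 72 h libraries differed from each other by more than 2-fold, yet all exceeded each 6 h library and each sedentary library at 2.81, 1.503 and 1.59 TPM. Dbp, the D-box activator through which the clock reaches metabolic genes, had 12.96, 15.9 and 12.7 TPM at 6 h and 34.7, 46.1 and 49.01 TPM at 72 h. For Dbp the log2 fold change was 1.60 (SE 0.32, adjusted p = 0.00923). Nr1d1, encoding REV-ERBα, a repressor of Arntl, had 15.2, 13.7 and 9.97 TPM at 6 h and 37.2, 32.5 and 31.998 TPM at 72 h (log2 fold change 1.37, SE 0.14, adjusted p = 0.000195), and unlike Ciart and Dbp it stayed below its 54.8, 53.8 and 51.2 TPM in sedentary muscle.

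Per3, a period gene, had 2.07, 2.31 and 2.21 TPM at 6 h and 4.09, 4.72 and 6.26 TPM at 72 h. The Per3 log2 fold change was 1.02 (SE 0.20, adjusted p = 0.0089). Per1 had 3.86, 5.01 and 4.66 TPM at 6 h and 6.07, 9.28 and 9.06 TPM at 72 h and Per2 1.19, 1.54 and 1.31 TPM at 6 h and 1.83, 2.67 and 2.14 TPM at 72 h, each without overlap but not called (adjusted p = 0.103 and 0.095). Bhlhe40, a repressor at E-boxes, had 12.5, 15.9 and 18.8 TPM at 6 h and 25.6, 27.6 and 28.4 TPM at 72 h. Bhlhe40 differed by 0.79 on the log2 scale (adjusted p = 0.0133). Hlf, a D-box activator like Dbp, had 1.48, 1.59 and 1.51 TPM at 6 h and 2.37, 3.38 and 2.97 TPM at 72 h. For Hlf the log2 fold change was 0.74 (adjusted p = 0.00227). The 2 clock genes called lower were Arntl, of the activators, and Nfil3, of the negative limb list. Arntl (chromosome 7, 112806152 to 112914735, plus strand) had 6.297, 6.06 and 6.25 TPM at 6 h and 3.13, 1.86 and 1.89 TPM at 72 h. The Arntl log2 fold change was -1.29 (SE 0.22, adjusted p = 0.00427). Nfil3, the D-box repressor, had 9.21, 7.66 and 10.3 TPM at 6 h and 3.73, 2.65 and 2.99 TPM at 72 h. Nfil3 differed by -1.40 on the log2 scale (SE 0.23, adjusted p = 0.00333). For both, all 72 h libraries lay below the sedentary ones, at 6.62, 9.198 and 9.02 TPM for Arntl and 4.43, 7.01 and 6.29 TPM for Nfil3. Clock and Rora were not called, and Cry1 spread widely within both groups, with 19.3, 14.6 and 3.83 TPM at 6 h and 2.54, 9.203 and 14.95 TPM at 72 h. The call of Bhlhe40 was lost without 6 h replicate 1 or 72 h replicate 2 or 3 (adjusted p up to 0.0562). Time of day, on which these genes depend in every tissue, and time after exercise cannot be told apart here.

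Promoters of the clock genes are shown because 4 of the 11 negative limb genes were higher and the elements the clock acts through are short and known. The E-box CACGTG, a palindrome and so the same on both strands, lay in 4 of the 9 negative limb genes with a promoter in the table (44.4%) and in 2 of 5 output genes. It lay in 12 of 71 genes higher at 72 h (16.9%), 27 of 218 lower genes (12.4%), 12.2% of the tested genes and 7.15% of all windows. Of the 4 negative limb genes with an E-box, Ciart, Cry1, Per1 and Bhlhe41, only Ciart was called in time. The output genes with an E-box, Tef and Tspan4, were not called in time. The called genes Nr1d1, Per3, Nfil3, Dbp and Hlf had 0 exact CACGTG matches in their promoter windows. Bhlhe40, also called, had no promoter in the table. Sites outside these windows or with other letters were not searched. The D-box TTANGTAA, searched on both strands, lay in 1 of the 9 negative limb genes and in 1.79% of the tested genes. Sequences are the 250 bases before the start (RefSeq, GRCm38.p6), 5′ to 3′ on the strand of the gene, with the motif in capitals. Ciart (chr3:95882229-95882478, minus strand) held 3 E-boxes beginning 116, 58 and 44 bases before the start, Per1 (chr11:69098699-69098948, plus strand) held 1 at 166 bases in 1 of its 2 windows, and Per3 (chr4:151044666-151044915, minus strand) held 2 D-boxes at 205 and 158 bases.
Ciart: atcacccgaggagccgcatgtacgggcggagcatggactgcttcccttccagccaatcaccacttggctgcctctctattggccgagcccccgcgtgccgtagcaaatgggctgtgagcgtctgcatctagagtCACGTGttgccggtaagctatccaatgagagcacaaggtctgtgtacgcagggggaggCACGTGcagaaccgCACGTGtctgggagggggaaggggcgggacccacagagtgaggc
Per1: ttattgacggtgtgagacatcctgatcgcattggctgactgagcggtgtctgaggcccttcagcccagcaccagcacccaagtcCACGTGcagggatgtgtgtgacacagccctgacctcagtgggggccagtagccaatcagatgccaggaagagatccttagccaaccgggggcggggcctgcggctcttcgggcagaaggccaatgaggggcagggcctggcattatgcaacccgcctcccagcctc
Per3: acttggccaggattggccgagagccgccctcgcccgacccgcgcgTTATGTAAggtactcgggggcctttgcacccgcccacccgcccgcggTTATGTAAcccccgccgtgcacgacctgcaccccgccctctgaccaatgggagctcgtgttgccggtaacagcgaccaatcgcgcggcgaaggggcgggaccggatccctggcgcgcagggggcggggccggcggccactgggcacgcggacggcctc
A match of letters is a description and no evidence of binding in these samples. Of the other motifs searched on both strands, the cyclic AMP element TGACGTCA lay in 2.82% of the promoters of higher, 2.29% of lower and 3.63% of tested genes, and the AP-1 site TGACTCA in 5.63%, 8.26% and 4.36%. The NR4A site AAAGGTCA lay in 0% of higher, 0.917% of lower and 1.17% of tested genes, and the ERR element TCAAGGTCA in 0%, 0% and 0.297%.

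**Figure D3:**
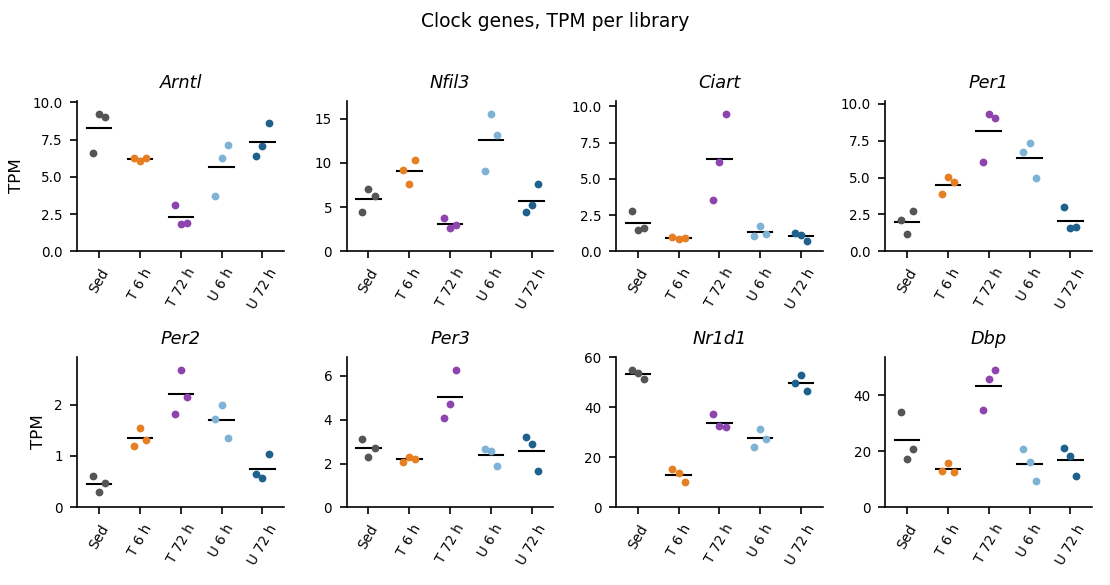
TPM of 8 clock genes in each library of sedentary (Sed), trained (T) and untrained (U) muscle, with points for libraries, bars for means of 3 and axes starting at 0. From trained 6 h to trained 72 h Arntl and Nfil3 go down and Ciart, Per3, Nr1d1 and Dbp go up, whereas the untrained libraries of Ciart and Dbp overlap between the times.

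Outside the clock and the early genes, the largest rises were spread over genes of diverse function. Tnfrsf19, the receptor TROY, had 1.36, 1.35 and 1.08 TPM at 6 h and 4.27, 3.92 and 3.73 TPM at 72 h against 3.75, 3.84 and 3.68 TPM in sedentary muscle (log2 fold change 1.35, SE 0.11, adjusted p = 6.44e-05), so the 6 h libraries were the low ones. The same order held for Pik3cd, a PI3 kinase catalytic subunit, with 1.33, 1.15 and 1.61 TPM at 6 h and 3.36, 3.63 and 4.92 TPM at 72 h against 2.73, 3.19 and 3.61 TPM (log2 fold change 1.25, SE 0.14, adjusted p = 0.000449), and for Ccrl2, an atypical chemokine receptor, with 1.43, 1.38 and 1.39 TPM at 6 h and 3.83, 3.13 and 3.82 TPM at 72 h against 3.91, 3.63 and 4.21 TPM. For Ccrl2 the log2 fold change was 1.102 (SE 0.12, adjusted p = 0.000321). Bcl6b had 1.06, 1.04 and 0.689 TPM at 6 h and 2.47, 3.23 and 2.195 TPM at 72 h (log2 fold change 1.13, adjusted p = 0.0069) and the zinc finger gene Zfp46 4.52, 5.89 and 4.9995 TPM at 6 h and 10.8, 12.5 and 11.03 TPM at 72 h. The Zfp46 log2 fold change was 1.09 (adjusted p = 0.000395). Asb15, a muscle subunit of ubiquitin ligases, had 9.24, 9.71 and 8.49 TPM at 6 h and 20.1, 23.5 and 21.7 TPM at 72 h (log2 fold change 1.21, SE 0.15, adjusted p = 0.000649), and here the 72 h libraries also exceeded the 13.2, 14.4 and 13.8 TPM of sedentary muscle. Cercam had 0.425, 0.511 and 0.382 TPM at 6 h and 1.71, 1.66 and 1.57 TPM at 72 h, Mib1, a ligase of Notch ligands, 6.26, 5.39 and 3.61 TPM at 6 h and 9.15, 11.8 and 12.4 TPM at 72 h, and Agtpbp1, which trims glutamates from tubulin, 11.002, 12.4 and 41.6 TPM at 6 h and 43.8, 46.3 and 46.8 TPM at 72 h (adjusted p = 0.0155, 0.0128 and 0.0416). In Agtpbp1 6 h replicate 3 lay close to the 72 h libraries. Agtpbp1 lost its call without 6 h replicate 1 or 2 or 72 h replicate 1, 2 or 3 (adjusted p up to 0.149). Cercam lost its call without 6 h replicate 1 or 3 or 72 h replicate 1 or 2 (adjusted p up to 0.0538). Mib1 lost its call without 72 h replicate 2 or 3 (adjusted p up to 0.0549).

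The energy machinery itself was near the median of all genes. Of 37 complex I subunits, 43 subunits of complexes II to V, 21 genes of the TCA cycle, 16 of beta-oxidation and 13 mRNAs of the mitochondrial genome 0 were called in either direction, with medians of 0.03, 0.01, 0.03, -0.02 and 0.05. By limma the unadjusted p was below 0.05 for 2 of these complex I genes, 4 of the complex II to V genes, 4 of the TCA cycle genes, 1 of the beta-oxidation genes and 3 of the mitochondrial mRNAs. Cytosolic ribosomal protein genes (78 tested, median -0.04) and proteasome subunits (37 tested, median -0.11) had 0 calls, with 4 and 11 genes at an unadjusted p below 0.05, and 35 of the 37 proteasome genes had negative values. Of 78 mitochondrial ribosomal protein genes 1 was lower, Mrpl21, with 40.1, 37.3 and 39.5 TPM at 6 h and 19.97, 20.2 and 20.5 TPM at 72 h. Mrpl21 differed by -0.93 on the log2 scale (adjusted p = 0.00117).

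**Figure D4:**
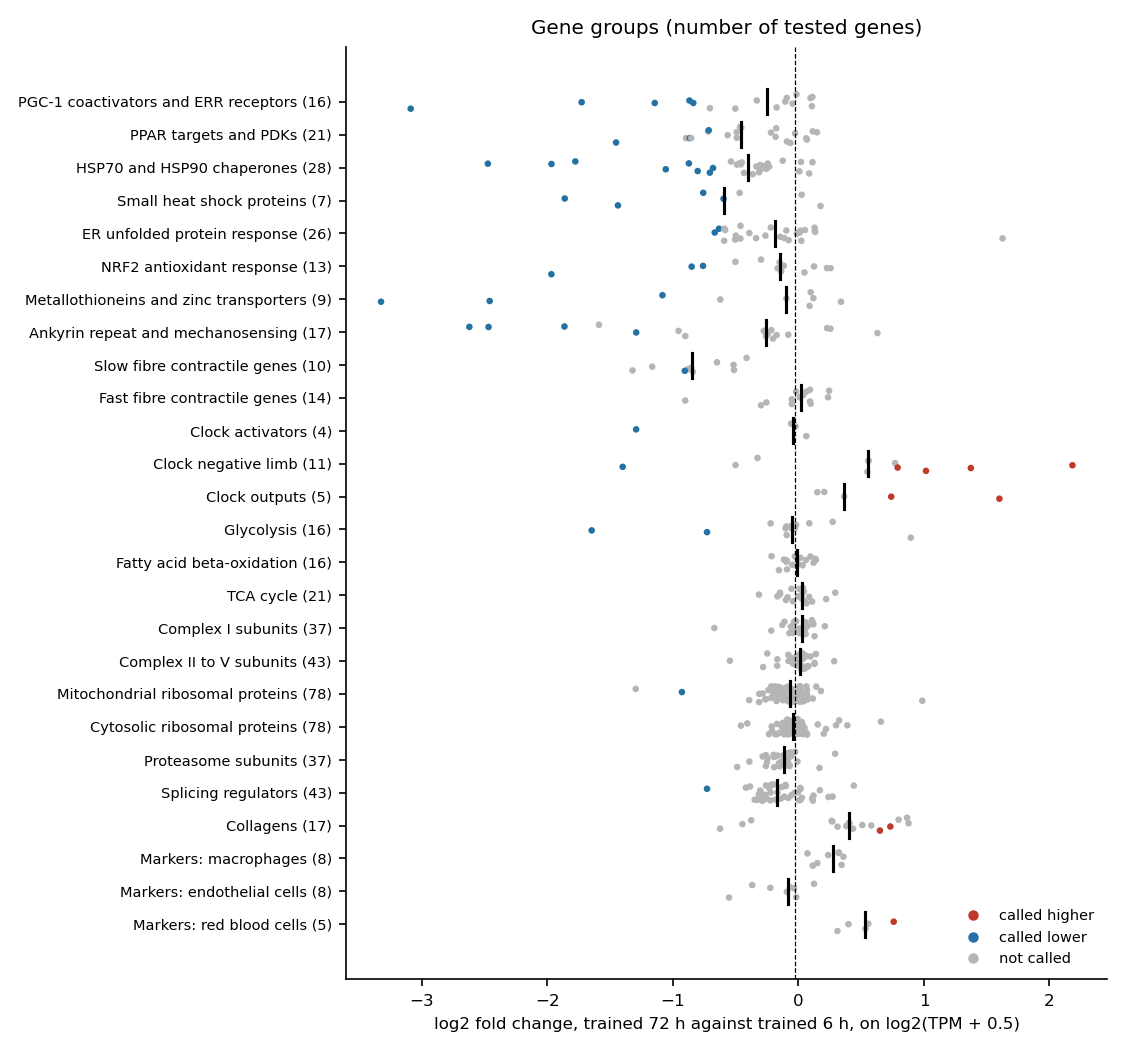
Log2 fold change from 6 h to 72 h in trained muscle for each tested gene of 26 groups, with called genes in blue (lower) or red (higher), a black bar at the group median and a dashed line at the median of all genes. Calls lie to the left in the PGC-1, chaperone and mechanosensing rows and to the right in the clock negative limb and output rows, and the rows of respiratory complexes, ribosome and proteasome cluster near the dashed line.

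Contractile genes of slow fibres were all lower in value, and 1 was called. All 10 tested had negative log2 fold changes, from -1.32 to -0.41 with a median of -0.85, and their summed level was 475 to 1351 TPM at 6 h and 352 to 521 TPM at 72 h. Myl2, the slow regulatory light chain, had 492, 138 and 224 TPM at 6 h and 70.1, 109 and 126 TPM at 72 h against 187, 191 and 327 TPM in sedentary muscle, without overlap but not called. For Myl2 the log2 fold change was -1.32 (adjusted p = 0.0621). Myh7, the slow myosin heavy chain, had 83.7, 29.7 and 59.6 TPM at 6 h and 28.7, 20.4 and 42.96 TPM at 72 h and overlapped. The Myh7 log2 fold change was -0.84 (adjusted p = 0.387). Tnni1, slow troponin I, had 68.4, 20.9 and 38.9 TPM at 6 h and 14.3, 15.9 and 20.6 TPM at 72 h. Tnni1 differed by -1.17 on the log2 scale (adjusted p = 0.134). Myoz2, a slow Z-disc protein that binds calcineurin, was the called member, with 74.4, 39.8 and 39.6 TPM at 6 h and 24.004, 24.5 and 29.5 TPM at 72 h (log2 fold change -0.91, adjusted p = 0.0484), and the call was lost after each of the 3 other scalings and without 6 h replicate 1 or 3 or 72 h replicate 1, 2 or 3 (adjusted p up to 0.151). Replicate 1 was the highest 6 h library of Myl2, Myh7, Tnni1 and Myoz2. Genes of this group vary with the share of slow fibres in the piece of muscle taken, and fewer fibres of a type and less RNA per fibre cannot be told apart in bulk tissue. The part of fibre composition in the results of Ankrd2, Csrp3 and Fabp3, genes also abundant in slow fibres, was not tested. The 14 fast fibre genes had 0 calls and a median of 0.02.

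Matrix and blood genes had more positive than negative values. Of 17 collagens tested 2 were higher (11.8%, against 0.884% of all genes) and 0 lower, with a median of 0.41. Positive values were found for 14, and 0 to 3 were higher with 1 of the 6 libraries left out. Col6a1 had 5.61, 5.36 and 6.94 TPM at 6 h and 11.4, 9.597 and 8.07 TPM at 72 h (log2 fold change 0.65, adjusted p = 0.0345) and Col6a2 4.43, 4.26 and 5.86 TPM at 6 h and 10.4, 8.09 and 6.83 TPM at 72 h (log2 fold change 0.73, adjusted p = 0.0222), with the 6 h libraries below the sedentary 9.504, 10.3 and 9.47 TPM of Col6a1. Lum, the matrix proteoglycan lumican, had 5.62, 4.94 and 6.07 TPM at 6 h and 9.37, 10.5 and 8.78 TPM at 72 h (log2 fold change 0.74, adjusted p = 0.00333) and was 1 of 8 fibro-adipogenic markers called, whose summed level was 446 to 496 TPM at 6 h and 491 to 546 TPM at 72 h. Macrophage markers had 0 calls among 8, all with positive values (median 0.28, summed 38.4 to 56.1 TPM at 6 h and 48.4 to 55.5 TPM at 72 h). The red blood cell list summed to 297 to 324 TPM at 6 h and 419 to 463 TPM at 72 h without overlap, and Hba-a2 was 1 called of 5, with 25.03, 33.5 and 30.2 TPM at 6 h and 57.1, 46.1 and 47.6 TPM at 72 h (log2 fold change 0.76, adjusted p = 0.0455), a near-copy of Hba-a1 whose reads may be divided with it. Neutrophil and lymphocyte markers had 0 genes over the 1 TPM filter. The part of blood or stromal content in other results was not tested. Col6a1 lost its call without 6 h replicate 1 or 2 or 72 h replicate 1 or 2 (adjusted p up to 0.126). Col6a2 lost its call without 6 h replicate 1 or 2 or 72 h replicate 1 or 2 (adjusted p up to 0.086). Hba-a2 lost its call without 6 h replicate 1, 2 or 3 or 72 h replicate 1, 2 or 3 (adjusted p up to 0.156).

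The other groups had few calls. In most of them 1 gene was lower and 0 were higher, among them Pim1 (1 of 10 STAT3 and SOCS genes), Prkag2 (1 of 7 AMPK subunits), Odc1 (1 of 11 polyamine genes), Atp1b1 (1 of 17 genes of excitation and contraction), Eya4 (1 of 11 myogenic regulators), Fbxo40 (1 of 15 atrophy genes), Gabarapl1 (1 of 24 autophagy genes), Metrnl (1 of 10 myokines) and Mbnl2 (1 of 43 splicing regulators). Of all genes tested 2.50% were lower, against 2.33% of the splicing regulators and 14.3% of the AMPK subunits. These counts are given for single genes and not as results about the lists. Odc1, the first enzyme of polyamine synthesis, had 80.7, 101 and 147 TPM at 6 h and 52.3, 47.7 and 61.7 TPM at 72 h. For Odc1 the log2 fold change was -0.98 (adjusted p = 0.00813). Metrnl, a secreted factor induced by exercise, had 3.73, 2.91 and 3.79 TPM at 6 h and 1.898, 1.98 and 1.48 TPM at 72 h. The Metrnl log2 fold change was -0.80 (adjusted p = 0.0115). Mbnl2, a splicing factor of muscle, had 42.5, 38.5 and 45.3 TPM at 6 h and 24.6, 25.8 and 25.1 TPM at 72 h. Mbnl2 differed by -0.73 on the log2 scale (adjusted p = 0.00306). The 35 mitochondrial carriers of the SLC25 family held 2 lower genes. Slc25a5, the nucleotide translocase ANT2, had 37.7, 29.2 and 35.2 TPM at 6 h and 16.3, 17.9 and 15.9 TPM at 72 h. For Slc25a5 the log2 fold change was -0.9997 (adjusted p = 0.000386). Slc25a29 had 3.02, 5.25 and 4.56 TPM at 6 h and 1.95, 1.87 and 1.97 TPM at 72 h. The Slc25a29 log2 fold change was -0.95 (adjusted p = 0.0313). Of the atrophy ligases, Trim63 (MuRF1) had 93.4, 92.6 and 93.3 TPM at 6 h and 61.6, 63.5 and 56.4 TPM at 72 h, without overlap but not called. Trim63 differed by -0.62 on the log2 scale (adjusted p = 0.0574). Fbxo32 (atrogin-1) overlapped with 38.6, 41.5 and 34.2 TPM at 6 h and 33.3, 38.8 and 30.9 TPM at 72 h. For Fbxo32 the log2 fold change was -0.15 (adjusted p = 0.663). Genes of cholesterol synthesis (15 tested), of DNA methylation and histone enzymes (24) and of mitochondrial one-carbon metabolism (7) had 0 calls. Pim1 lost its call without 6 h replicate 1 (adjusted p up to 0.0552). Prkag2 lost its call without 6 h replicate 3 or 72 h replicate 1 or 2 (adjusted p up to 0.0926). Eya4 lost its call without 6 h replicate 1 or 3 or 72 h replicate 1 or 2 (adjusted p up to 0.101). Fbxo40 lost its call without 6 h replicate 1 or 2 or 72 h replicate 1 or 3 (adjusted p up to 0.115). Gabarapl1 lost its call without 6 h replicate 1 or 72 h replicate 1, 2 or 3 (adjusted p up to 0.128). Metrnl lost its call without 72 h replicate 3 (adjusted p up to 0.0523). Slc25a29 lost its call without 6 h replicate 2 or 3 or 72 h replicate 1, 2 or 3 (adjusted p up to 0.107). Gabarapl1 also lost its call after each of the 3 other scalings and Eya4 after quantile normalization.

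Short non-coding RNAs were called in both directions, from values at or near 0 in 1 of the groups. Gm56277 had 8.55, 4.67 and 11.4 TPM at 6 h and was listed at 0 in each library at 72 h, and Gm23297 had 4.28, 4.67 and 8.53 TPM and 0 in each library. In the other direction Gm55849 was listed at 0 in each library at 6 h and had 2.95, 3.04 and 6.65 TPM at 72 h, and Gm22079 was listed at 0 in each library at 6 h and had 2.95, 3.04 and 9.97 TPM at 72 h (adjusted p = 0.00735, 0.0175, 0.0315 and 0.0492). No fold change between 6 h and 72 h is given here against a group listed at 0, and transcripts of this length are poorly captured by a library made for mRNA. Differences from untrained recovery given further below for such genes depend on the pseudocount. The same values recur between genes, 2.95 and 3.04 TPM in Gm55849 and Gm22079 and 4.67 TPM in Gm56277 and Gm23297. Such values may rest on few reads, whose number is unknown. Gm23297 lost its call without 6 h replicate 3 or 72 h replicate 1, 2 or 3 (adjusted p up to 0.0671). Gm55849 lost its call without 6 h replicate 1, 2 or 3 or 72 h replicate 1, 2 or 3 (adjusted p up to 0.114). Gm22079 lost its call without 6 h replicate 1, 2 or 3 or 72 h replicate 1, 2 or 3 (adjusted p up to 0.166).

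The recovery of trained muscle was set against that of untrained muscle by testing the difference between both 72 h to 6 h differences, which share no library. Of the 11653 genes 61 were called (0.523%), 27 with a higher and 34 with a lower trained value, and 1286 had an unadjusted p below 0.05. For most of the genes described above, the difference did not pass, among them Ppargc1a, with an untrained log2 fold change of -2.59 against -3.09 in trained muscle (difference -0.50, SE 0.27, adjusted p = 0.552), and Mt2, with -3.37 against -3.33 (difference 0.05, SE 0.64, adjusted p = 0.995). A p that misses the threshold does not show that both recoveries were equal.

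The 4 chaperone genes called stood on 1 side of the differences, and their untrained 6 h libraries were the highest of the 5 groups in the fit. Outside the fit, trained 0 h replicates 2 and 3 had 64.1 and 31.5 TPM of Dnajb1 and 35.6 and 24.7 TPM of Dnajb4. Hspa1a had 89.03, 151 and 108 TPM in untrained muscle at 6 h and 0.564, 1.098 and 1.198 TPM at 72 h, a log2 fold change of -6.32 against -2.47 in trained muscle (difference 3.84, SE 0.40, adjusted p = 0.00205). Hspa1b had 102, 181 and 124 TPM at 6 h and 0.724, 0.854 and 0.788 TPM (difference 4.71, SE 0.48, adjusted p = 0.00205). Dnajb1 had 14.3, 20.2 and 16.02 TPM at 6 h and 1.28, 1.21 and 1.39 TPM at 72 h in untrained muscle, whereas its trained libraries overlapped (difference 3.34, SE 0.23, adjusted p = 6.48e-05), and Dnajb4 followed with 40.7, 62.4 and 47.96 TPM at 6 h and 13.5, 14.98 and 15.004 TPM against 21.6, 15.3 and 16.3 TPM at 6 h and 11.9, 12.4 and 11.4 TPM at 72 h in trained muscle (difference 1.21, SE 0.21, adjusted p = 0.0308). Gm20481 overlaps Hspa1a on the opposite strand, and the sources used here do not say whether strand was counted, so its reads and those of Hspa1a cannot be told apart. Enah, an actin filament elongation factor, had 36.8, 55.5 and 42.4 TPM at 6 h and 4.803, 4.97 and 4.595 TPM (difference 2.46, SE 0.40, adjusted p = 0.0218), and Otud1, a deubiquitinase, 34.5, 88.3 and 33.7 TPM at 6 h and 2.78, 2.98 and 2.01 TPM (difference 3.71, SE 0.66, adjusted p = 0.0324). Dnajb4 lost the call of its difference without untrained 6 h replicate 2 or 3, untrained 72 h replicate 1, 2 or 3, trained 6 h replicate 2 or 3 or trained 72 h replicate 1, 2 or 3 (adjusted p up to 0.0878). Enah lost the call of its difference without untrained 6 h replicate 2, untrained 72 h replicate 1, 2 or 3, trained 6 h replicate 3 or trained 72 h replicate 2 or 3 (adjusted p up to 0.0664). Otud1 lost the call of its difference without untrained 6 h replicate 2, untrained 72 h replicate 1, 2 or 3, trained 6 h replicate 2 or 3 or trained 72 h replicate 2 or 3 (adjusted p up to 0.0916).

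Esrrg, G0s2, Dusp18 and Gpt stood on the other side, with a lower trained than untrained log2 fold change. Esrrg had 5.01, 4.07 and 3.5995 TPM at 6 h and 2.81, 3.07 and 2.88 TPM at 72 h in untrained muscle, a log2 fold change of -0.46 against -1.73 (difference -1.27, SE 0.17, adjusted p = 0.0102). G0s2, an inhibitor of the lipase ATGL, had 19.1, 19.5 and 21.1 TPM at 6 h and 4.69, 6.73 and 3.98 TPM at 72 h in trained and 7.37, 8.36 and 6.91 TPM at 6 h and 6.27, 7.57 and 12.7 TPM in untrained muscle, with the trained 6 h libraries above each of the others (difference -2.05, SE 0.35, adjusted p = 0.0289). Dusp18, a phosphatase, had 6.89, 6.15 and 6.103 TPM at 6 h and 2.77, 2.32 and 1.71 TPM at 72 h in trained and 1.58, 1.78 and 1.76 TPM at 6 h and 2.06, 2.58 and 1.83 TPM in untrained muscle (difference -1.59, SE 0.26, adjusted p = 0.0218). Gpt, alanine aminotransferase, had 18.2, 16.6 and 11.5 TPM at 6 h and 10.02, 8.35 and 10.5 TPM at 72 h and the opposite order in untrained muscle, 7.01, 6.73 and 6.71 TPM at 6 h and 10.1, 11.2 and 11.4 TPM (difference -1.28, SE 0.21, adjusted p = 0.0218). Ppara and Esrrb had differences of -1.41 and -0.86 that were not called (adjusted p = 0.0641 and 0.0631), and that of Perm1 passed the adjusted p but not the fold threshold (difference -0.58, SE 0.11, adjusted p = 0.0443). G0s2 lost the call of its difference without untrained 6 h replicate 2 or 3, untrained 72 h replicate 2, trained 6 h replicate 1, 2 or 3 or trained 72 h replicate 1 or 3 (adjusted p up to 0.0855). Dusp18 lost the call of its difference without untrained 6 h replicate 2, untrained 72 h replicate 1 or 2 or trained 72 h replicate 2 or 3 (adjusted p up to 0.0684). Gpt lost the call of its difference without untrained 6 h replicate 2, untrained 72 h replicate 2 or 3 or trained 72 h replicate 2 or 3 (adjusted p up to 0.0684).

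The difference was called as well for 1 of the clock activators, 3 of the negative limb genes and 2 of the output genes. Of these, Tspan4 of the output list is given with the other differences below. Per1 had 6.71, 7.37 and 4.94 TPM at 6 h and 2.98, 1.61 and 1.65 TPM at 72 h in untrained muscle, the reverse of the trained order (difference 2.20, SE 0.37, adjusted p = 0.028). Per2 had 1.73, 1.99 and 1.36 TPM at 6 h and 0.6399, 0.572 and 1.04 TPM (difference 1.37, SE 0.26, adjusted p = 0.0443), again reversed. Ciart overlapped between the untrained times, with 1.05, 1.78 and 1.21 TPM at 6 h and 1.28, 1.13 and 0.7198 TPM (difference 2.44, SE 0.42, adjusted p = 0.0286), as did Arntl with 3.71, 6.25 and 7.11 TPM at 6 h and 6.41, 7.07 and 8.59 TPM (difference -1.67, SE 0.32, adjusted p = 0.0443). Hlf had 1.73, 1.75 and 1.91 TPM at 6 h and 1.59, 1.49 and 1.27 TPM (difference 0.98, SE 0.16, adjusted p = 0.0273). The differences of Nr1d1, Dbp and Per3 were not called (adjusted p = 0.301, 0.213 and 0.194). Per1 lost the call of its difference without untrained 6 h replicate 2, untrained 72 h replicate 2 or 3, trained 6 h replicate 1 or 3 or trained 72 h replicate 2 or 3 (adjusted p up to 0.0835). Per2 lost the call of its difference without untrained 6 h replicate 1, 2 or 3, untrained 72 h replicate 1 or 2, trained 6 h replicate 1, 2 or 3 or trained 72 h replicate 2 or 3 (adjusted p up to 0.126). Ciart lost the call of its difference without untrained 6 h replicate 2 or 3, untrained 72 h replicate 1, 2 or 3, trained 6 h replicate 1, 2 or 3 or trained 72 h replicate 2 or 3 (adjusted p up to 0.0795). Arntl lost the call of its difference without untrained 6 h replicate 2, untrained 72 h replicate 1, 2 or 3, trained 6 h replicate 1, 2 or 3 or trained 72 h replicate 2 or 3 (adjusted p up to 0.115). Hlf lost the call of its difference without untrained 6 h replicate 2 or 3, untrained 72 h replicate 1, 2 or 3, trained 6 h replicate 1 or 3 or trained 72 h replicate 2 or 3 (adjusted p up to 0.0787). Whether trained and untrained mice of 1 time point were sampled at the same time of day is not given in the sources used here.

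Other differences were called too. They included Ier5, an early gene, with 3.38, 5.81 and 2.71 TPM at 6 h and 1.26, 1.29 and 1.43 TPM in untrained muscle. In trained muscle it had 1.17, 1.101 and 1.26 TPM at 6 h and 1.35, 1.48 and 1.303 TPM at 72 h (difference 1.39, SE 0.27, adjusted p = 0.0443). Called as well were Nrip1, the corepressor RIP140 (difference 0.89, SE 0.16, adjusted p = 0.0419), and Srm, spermidine synthase (difference 0.65, SE 0.11, adjusted p = 0.028). Another was Tspan4, a tetraspanin gene of the clock output list (difference 1.08, SE 0.21, adjusted p = 0.0464). Among short RNAs, Snord100 was listed at 0 in each library in untrained muscle at 6 h and had 5.26, 7.47 and 6.62 TPM at 72 h, against 3.497, 9.57 and 0 TPM and 0 in each library in trained muscle (adjusted p = 0.0286). Snord45c had 10.9, 3.44 and 2.72 TPM at 6 h and 7.77, 3.56 and 5.46 TPM without training, against 11.4, 3.09 and 3.77 TPM and 0 in each library in trained muscle (adjusted p = 0.0443), and Gm56277 was listed at 0 in each library at 6 h and had 5.85, 10.7 and 16.4 TPM at 72 h in untrained muscle (adjusted p = 0.0084). Ier5 lost the call of its difference without untrained 72 h replicate 1, 2 or 3, trained 6 h replicate 1, 2 or 3 or trained 72 h replicate 1, 2 or 3 (adjusted p up to 0.121). Nrip1 lost the call of its difference without untrained 6 h replicate 2 or 3, untrained 72 h replicate 1, 2 or 3, trained 6 h replicate 1 or 2 or trained 72 h replicate 2 or 3 (adjusted p up to 0.114). Tspan4 lost the call of its difference without untrained 6 h replicate 2 or 3, untrained 72 h replicate 1, 2 or 3, trained 6 h replicate 2 or 3 or trained 72 h replicate 2 or 3 (adjusted p up to 0.115). Srm lost the call of its difference without untrained 6 h replicate 2 or 3, untrained 72 h replicate 1, 2 or 3, trained 6 h replicate 1 or 3 or trained 72 h replicate 1, 2 or 3 (adjusted p up to 0.0787). Snord100 lost the call of its difference without untrained 6 h replicate 2 or 3, untrained 72 h replicate 1, 2 or 3, trained 6 h replicate 1 or trained 72 h replicate 1, 2 or 3 (adjusted p up to 0.0798). Snord45c lost the call of its difference without untrained 6 h replicate 2 or 3, untrained 72 h replicate 1, 2 or 3, trained 6 h replicate 1 or 3 or trained 72 h replicate 1, 2 or 3 (adjusted p up to 0.108). The set of called differences rested on single libraries more than the comparison in time did, since the 61 calls became 16 without trained 72 h replicate 2 or 3 and 17 without untrained 6 h or 72 h replicate 2. The calls of Hspa1a, Hspa1b, Dnajb1, Gm20481, Esrrg and Gm56277 remained with any of the 12 libraries left out, though the values of Gm56277 may rest on few reads.

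**Figure D5:**
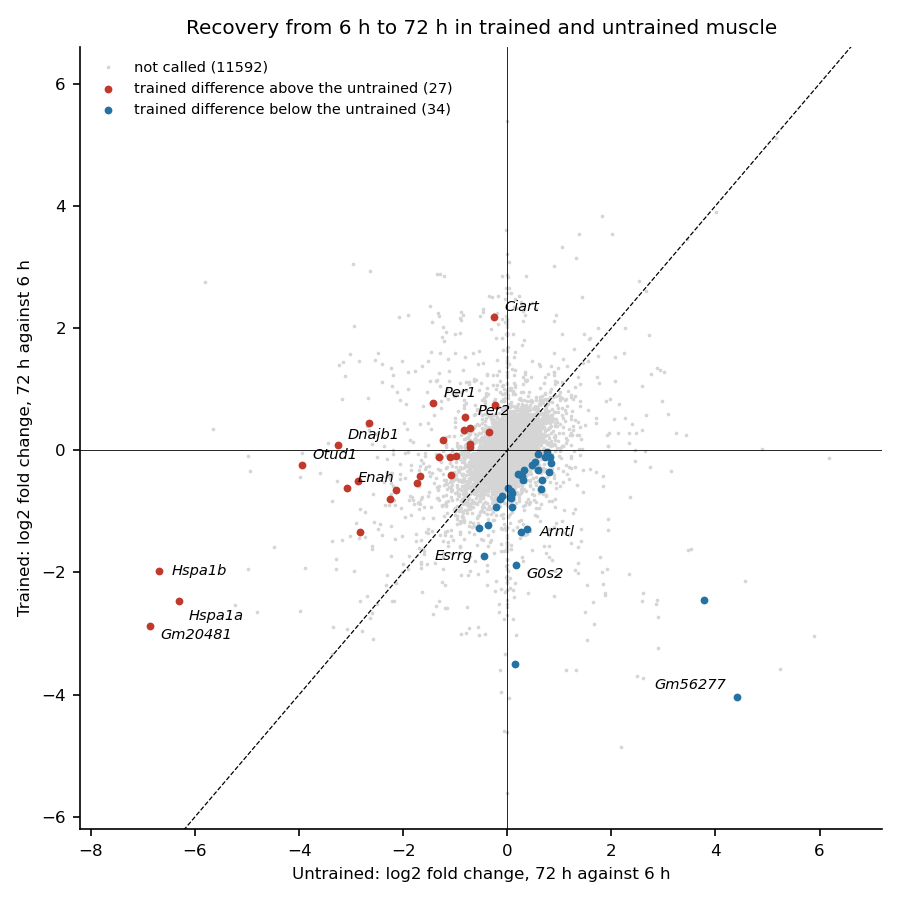
Each point is a tested gene, with its log2 fold change from 6 h to 72 h in untrained muscle on the horizontal axis and in trained muscle on the vertical axis, both on log2(TPM + 0.5). The 27 genes with a higher (red) and the 34 with a lower (blue) trained difference lie off the dashed line of equal change, with Hspa1a and Hspa1b far left and Esrrg, G0s2 and Arntl below the line.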

How the data were processed

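Whole quadriceps RNA was prepared with a TruSeq v2 kit and sequenced paired-end, and the authors aligned the reads with STAR 2.7.9 to GRCm39 and quantified genes with Salmon 1.5.0, per the study's methods and the submitters' processing notes. The deposited values are TPM per gene symbol, made by the authors from those estimates. Whether the counting used strand is not given in the sources used here, and TPM holds no read depth. Salmon divides reads between similar transcripts, so that members of gene families can exchange reads, and TPM is relative to the library total, a large share of which came from the mitochondrial genome.

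These TPM were taken to log2(TPM + 0.5) and modelled by limma 3.58.1 (R 4.3.3, empirical Bayes, mean-variance trend) over 15 libraries of 5 groups with 10 residual degrees of freedom. Genes entered with an average of 1 TPM or more in the 6 trained libraries. Genes were called at a Benjamini-Hochberg adjusted p below 0.05 and at least 1.5-fold, in the contrast of trained 72 h minus 6 h and in the difference of this contrast from the untrained one. The 72 h libraries also enter the values set beside sedentary muscle, for which no test is given. The fit was tested on simulated data. Plots were made in matplotlib 3.10.9 (Python 3.11.15).

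The genes named are the 15 largest rises and falls among called protein-coding genes without overlap, up to 6 called members of each gene list in each direction and members needed to describe a list, the 8 largest called differences from untrained recovery in each direction, and the 2 largest rises and falls of other classes. Of these, 1 gene is not reported here. The comparison and the gene lists were chosen with earlier results of these data known. Gene positions are from GENCODE on GRCm39 (247 tested symbols were not matched), and promoters are from RefSeq on GRCm38.p6 (8093 tested genes matched). Alternatives covered the pseudocount, the filter, the scaling, the genes and groups in the fit, the variance model, a replicate block and each library left out.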

Additional observations from a re-analysis of the deposited data

Results flagged for a closer look

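The difference between trained and untrained recovery was tested in the limma fit itself, and 61 genes passed (0.523% of those tested). The values below are the trained minus the untrained log2 fold change from 6 h to 72 h, as values only.

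Among chaperone and stress genes the difference was 3.84 for Hspa1a, 4.71 for Hspa1b, 3.34 for Dnajb1, 1.21 for Dnajb4, 3.98 for Gm20481, which overlaps Hspa1a, 1.39 for Ier5 and 3.71 for Otud1. It was 2.46 for Enah, 1.08 for the clock output gene Tspan4, 0.65 for Srm and 0.89 for Nrip1. Among clock genes it was 2.44 for Ciart, 2.20 for Per1, 1.37 for Per2, 0.98 for Hlf and -1.67 for Arntl. A more negative trained value was found for Esrrg (-1.27), G0s2 (-2.05), Gpt (-1.28) and Dusp18 (-1.59). For the short RNAs Gm56277 (-8.45), Snord100 (-6.23) and Snord45c (-3.66) at least 1 group was listed at 0 in each library, so that the size depends on the pseudocount.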

How the results depend on the processing

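For trained 72 h against 6 h, the 394 calls became 241 with a mean of at least 5 TPM (48 higher, 193 lower) and 982 without a threshold on the fold change (270 higher, 712 lower). The higher genes became 163 after quantile normalization and 179 after TPM was rescaled without the mitochondrial genome and the 10 highest genes. The scalings moved the median of all genes by at most 0.06. With 1 library left out there were 314 to 413 calls (61 to 99 higher, 240 to 318 lower). For the difference from untrained recovery, the 61 calls became 28 with a mean of at least 5 TPM (14 higher, 14 lower) and 102 with sample quality weights (56 higher). The 27 higher became 51 after median-of-ratios scaling, 45 after quantile normalization and 15 with only the 4 groups compared in the fit. With 1 library left out there were 16 to 77 calls (9 to 47 higher, 5 to 30 lower), among them 17 without untrained 6 h replicate 2, 24, 17 and 26 without untrained 72 h replicates 1, 2 and 3, 30 without trained 6 h replicate 3 and 16 each without trained 72 h replicates 2 and 3. The difference in the mitochondrial share was 1.03 percentage points, and 0.675 to 1.41 with 1 library left out. The cause of these changes was not tested.

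Same-numbered replicates of the 6 h and 72 h groups did not deviate together (correlations of 0.017, 0.00096 and 0.053), and not every sample correlated best with its own number, so the numbers were not taken as pairs. With a replicate block there were 390 calls in time and 23 for the difference (10 higher, 13 lower).

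Of 95 named genes called in time, 65 kept their call under every alternative run, 63 with each library left out and 61 under both, and 0 reversed. With only the 6 trained libraries in the fit 23 of the 95 calls were lost, Hspa1b and Odc1 among them. Of 23 named genes called for the difference, 6 kept it under each of these and 0 reversed. Depth is unknown, which limits what can be said of genes near 1 TPM.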

Other observations

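Several of the 291 lower genes stood in no gene list and were chosen after their values were seen. Lpin1, a phosphatidate phosphatase and coactivator of PPARα, had 81.1, 80.1 and 86.7 TPM at 6 h and 34.5, 34.2 and 35.3 TPM at 72 h against 40.96, 42.2 and 47.9 TPM in sedentary muscle. The Lpin1 log2 fold change was -1.24 (SE 0.08, adjusted p = 1.7e-05). Slc16a1, the monocarboxylate transporter MCT1 that carries lactate, had 11.5, 9.54 and 11.8 TPM at 6 h and 4.53, 5.16 and 4.97 TPM at 72 h. Slc16a1 differed by -1.09 on the log2 scale (SE 0.10, adjusted p = 0.000156). In both genes the libraries of a time lay close together, and the times did not overlap. Cntfr, the receptor subunit for ciliary neurotrophic factor, had 15.7, 11.8 and 14.8 TPM at 6 h and 3.98, 4.32 and 3.39 TPM at 72 h against 2.84, 3.44 and 3.91 TPM in sedentary muscle. For Cntfr the log2 fold change was -1.73 (SE 0.14, adjusted p = 4.86e-05). Hbegf, an EGF receptor ligand, had 7.77, 4.21 and 5.14 TPM at 6 h and 1.67, 1.903 and 1.73 TPM at 72 h. The Hbegf log2 fold change was -1.41 (SE 0.23, adjusted p = 0.00333). Glul, glutamine synthetase, had 99.8, 139.8 and 114 TPM at 6 h and 62.1, 60.6 and 55.996 TPM at 72 h (log2 fold change -0.97, SE 0.17, adjusted p = 0.00451), with all 72 h libraries above the 28.4, 32.2 and 38.6 TPM of sedentary muscle.

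Among higher genes outside the lists were 2 hormone receptor genes. Thrb, for the thyroid hormone receptor, had 3.096, 3.28 and 3.52 TPM at 6 h and 5.21, 5.596 and 5.57 TPM at 72 h. Thrb differed by 0.65 on the log2 scale (SE 0.10, adjusted p = 0.00177). Nr3c2, for the mineralocorticoid receptor, had 1.11, 0.573 and 0.721 TPM at 6 h and 1.97, 1.91 and 1.77 TPM at 72 h. For Nr3c2 the log2 fold change was 0.90 (SE 0.19, adjusted p = 0.0134). Ky, which is needed for the upkeep of muscle and its junctions, had 23.1, 23.3 and 26.6 TPM at 6 h and 37.97, 37.7 and 42.2 TPM at 72 h. The Ky log2 fold change was 0.68 (SE 0.14, adjusted p = 0.00939). Asb18, a muscle subunit of ubiquitin ligases like Asb15, had 6.32, 6.29 and 8.23 TPM at 6 h and 11.4, 11.4 and 11.6 TPM at 72 h. Asb18 differed by 0.69 on the log2 scale (SE 0.10, adjusted p = 0.00131). The calls of the genes named here each remained with any of the 6 trained libraries left out.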
